A study of Mus musculus with 2 samples.

Results

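Cells take up and exchange amino acids through carriers of the solute carrier (SLC) families, and the genes described here are 10 carriers of neutral and cationic amino acids, listed by name: Slc1a4, Slc1a5, Slc7a1, Slc7a3, Slc38a1, Slc38a2, Slc38a9, Slc6a9, Slc43a1 and Slc36a1. Of these, 8 were among the 14197 genes of the deposited table, and Slc7a3 and Slc43a1 were not. The list leaves out Slc3a2 and the exchangers that pair with it. The values came from 4T1 cells, a murine mammary carcinoma line with the genotype given as WT. In 1 library the cells had been treated for 24 h with astragalin (AS), a plant flavonoid, and in the other with the vehicle. Neither the dose of AS nor what the vehicle was is stated for the sequenced cells. The comparison asks how the transcriptome of a breast cancer line differs after AS. With 1 library per condition no difference given here has a replicate check, no p-value is given, and whatever else set the cultures apart cannot be separated from AS. Both libraries are of bulk RNA, in which fewer cells of a type and less RNA per cell cannot be told apart. The study also used luciferase-labelled 4T1 cells, and the labels do not say whether the sequenced cells were of that kind.

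Neutral amino acids such as alanine, serine, cysteine, glycine and glutamine enter tumour cells through sodium-coupled carriers, and some of these carriers exchange one neutral amino acid for another. Cationic amino acids, arginine and lysine, enter through separate carriers, and other carriers of the same families sit in the lysosome membrane, where they release amino acids from degraded protein and take part in signalling to the growth kinase mTORC1. Several of the plasma membrane genes are known targets of the transcription factor ATF4, which is translated when amino acids run short or the eIF2α kinases are active.

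The deposited values are RPKM, reads per kilobase of summed exons scaled to the reads of the library. With the exon lengths of GENCODE M21 (mouse genome GRCm38), whole reads were recovered for 12715 genes, which made up 93.4% of a library of 44909683 reads with AS and 93.1% of one of 50820728 reads with the vehicle. All 8 transporters were among them. The median log2 fold change of all genes was 0.07, and 60.9% of the genes were higher with AS. All 6 epithelial markers on the list (Epcam, Cdh1, Krt7, Krt8, Krt18 and Krt19) were in the table, with RPKM values from 84.6 to 902 in the vehicle library. Summed over this list they came to 1764 RPKM in the AS library against 2278 in the vehicle library. The markers did not move together. Krt7, Krt8, Krt18 and Krt19 had log2 fold changes of -0.52, -0.54, -0.35 and -0.73, while Epcam was at -0.09 and Cdh1 at 0.17. The part of these differences in the results was not tested. Of 10 markers of leukocytes, endothelium and fibroblasts, 8 were not in the table, Ptprc was at 0.116 RPKM in the AS library against 0.114 in the vehicle library, and Pdgfra at 4.24 and 4.16.

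The stretches before the transcription start are shown first for 4 of the genes, to set the largest change, that of Slc1a4, beside the main cationic carrier, the amino acid-responsive Slc38a2 and a lysosomal carrier. They are from RefSeq (GRCm38.p6) and read 5′ to 3′ on the strand of the gene. The table of promoters held 10 windows for 7 of the 10 genes, and none for Slc1a5, Slc7a3 and Slc38a1. Each window was searched on both strands for TGATGNAA (the C/EBP-ATF response element), CACGTG (the E-box), TGACNNNGC (the antioxidant response element) and TGACGTCA (the cAMP response element), and matches are in capitals. The Slc1a4 stretch is chr11:20332710-20332963, minus strand, the Slc7a1 stretch chr5:148399905-148400154, minus strand, the Slc38a2 stretch chr15:96699729-96699978, minus strand, and the Slc36a1 stretch chr11:55204090-55204342, plus strand.
Slc1a4: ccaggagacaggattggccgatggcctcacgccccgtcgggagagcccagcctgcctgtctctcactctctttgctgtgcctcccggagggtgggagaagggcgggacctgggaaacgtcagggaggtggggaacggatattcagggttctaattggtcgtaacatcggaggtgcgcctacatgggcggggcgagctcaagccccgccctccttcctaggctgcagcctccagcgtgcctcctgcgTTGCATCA
Slc7a1: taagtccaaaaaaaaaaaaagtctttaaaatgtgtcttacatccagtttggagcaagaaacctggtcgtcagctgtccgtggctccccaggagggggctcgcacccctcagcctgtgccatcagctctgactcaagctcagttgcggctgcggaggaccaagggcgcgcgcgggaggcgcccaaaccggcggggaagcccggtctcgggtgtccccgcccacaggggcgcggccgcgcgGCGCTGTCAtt
Slc38a2: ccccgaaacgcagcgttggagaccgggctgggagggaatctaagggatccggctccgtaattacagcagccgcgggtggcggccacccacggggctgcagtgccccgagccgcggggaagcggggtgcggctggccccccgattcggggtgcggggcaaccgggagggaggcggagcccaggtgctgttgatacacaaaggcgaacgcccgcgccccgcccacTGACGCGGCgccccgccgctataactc
Slc36a1: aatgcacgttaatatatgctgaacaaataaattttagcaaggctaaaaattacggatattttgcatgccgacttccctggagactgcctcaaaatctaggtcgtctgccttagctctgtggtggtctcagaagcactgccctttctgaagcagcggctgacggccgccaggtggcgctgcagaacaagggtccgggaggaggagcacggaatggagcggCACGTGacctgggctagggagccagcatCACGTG

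The Slc1a4 window alone among those of the listed genes held TGATGNAA, as TTGCATCA on the reverse strand from position -4 to 4, across the annotated start (-1 is the last base before the start and 1 the first base of the transcript), and for that reason its stretch, like that of Slc36a1, runs to the last base of that match. Of all 32851 promoter windows of 300 bases, 3.97% held this motif. The match TGACGCGGC to the antioxidant response element lay in the Slc38a2 window from -27 to -19 and the match GCGCTGTCA, on the reverse strand, in the window of the distal start of Slc7a1, the one printed, from -11 to -3. The window of its other start held no match to any of the 4 motifs. Such a match was in 12.4% of all windows. Of the 3 Slc6a9 windows, 2 held a match, TGACGCTGC and TGACTTGGC, and the Slc43a1 window held GCTGTGTCA. The Slc36a1 window held CACGTG from -31 to -26 and from -3 to 3. The latter overlaps TGACAGGGC, a match to the antioxidant response element from 2 to 10 that runs past the printed stretch. These bases are inside the RefSeq transcript but before base 55204350, where GENCODE M21 starts the gene. The Slc43a1 window held an E-box too, and 7.15% of all windows held one. The cAMP response element, in 1.79% of all windows, was in none of the 10, and the Slc38a9 window held no match to any of the 4 motifs. A match is a stretch of letters and says nothing of whether a factor was bound. Each window has 300 bases, 250 of them before the start, and elements further off on either side were not searched for. A window without a match therefore does not show that the gene lacks the element.

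All 8 transporters in the table had more RPKM with AS than with the vehicle, as did 60.9% of all genes. Fold changes are log2 ratios, AS over vehicle, taken after 0.1 RPKM was added to each value. They ran from 0.18 for Slc38a9 to 1.32 for Slc1a4, with a median of 0.66. Past a log2 fold change of 1, the threshold of the study's methods, lay Slc1a4 and Slc6a9, 2 of 8, where 0.662% of all genes were higher by as much and 0.310% lower. The value of Slc6a9 is uncertain, since 30.2% of its exon bases are also exons of genes on the opposite strand. Past 1.5-fold, the size of the other threshold those methods state, lay 4 of 8, with Slc1a5 and Slc7a1 added, where 3.56% of all genes were higher by as much and 2.01% lower. None of the 8 was lower. The 8 genes together had 47.3 RPKM under AS against 27.1 under vehicle, a ratio of 1.74. The genes were listed with earlier results of these data known, so the counts describe these genes and are not independent evidence.

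**Figure D1:**
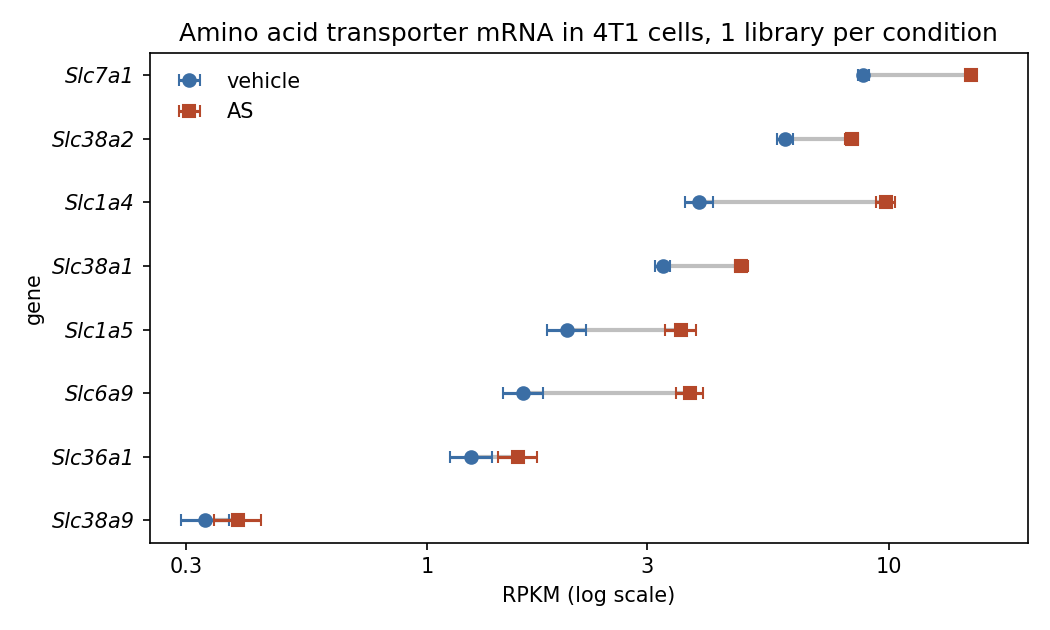
RPKM (log scale) of the 8 transporter genes in the vehicle library (circles) and the AS library (squares), with 95% exact Poisson intervals that cover counting error only. Every gene lies further right with AS, from 0.330 to 0.388 RPKM for Slc38a9 up to 8.82 to 15.1 RPKM for Slc7a1.

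The ASC-type exchangers, which swap small neutral amino acids across the plasma membrane in a sodium-dependent way, were both higher with AS, and not to the same degree. Slc1a4 encodes ASCT1, a carrier of serine, alanine, cysteine and threonine. The gene is on the minus strand of chromosome 11, bases 20302180 to 20332713. Its level was 9.85 RPKM in the AS library (1736 reads) against 3.88 in the vehicle library (774 reads). The log2 fold change was 1.32, number 32 of all 14197 genes in order of the change. The 95% Clopper-Pearson interval of the reads, without the added amount and for counting error only, was 1.22 to 1.47. Slc1a5 encodes ASCT2, the glutamine carrier of many proliferating cells, and is on the plus strand of chromosome 7, bases 16781340 to 16798274. It had 3.55 RPKM in the AS library (665 reads) against 2.01 in the vehicle library (426 reads), a log2 fold change of 0.79 (interval 0.64 to 0.9998). The change of Slc1a4 in reads was larger than that of Slc1a5 by 0.52 on the log2 scale, with a counting interval of 0.31 to 0.74. This was the only one of 5 such pairs compared whose interval lay apart from 0. The 5 pairs were picked by hand, outside the planned comparisons, and the other possible pairs were not compared. Slc1a4 was at 1.93 times the RPKM of Slc1a5 in the vehicle library and at 2.77 times in the AS library. Together the pair summed to 13.4 RPKM under AS against 5.89 under vehicle.

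The other sodium-coupled carriers of the list were Slc38a1, Slc38a2 and Slc6a9. The largest change of these was that of Slc6a9, given below with the reason why its value is uncertain. Slc38a1 and Slc38a2 encode SNAT1 and SNAT2, which take up alanine, serine and glutamine with sodium, and SNAT2 is the carrier classically raised by amino acid starvation. The genes are next to each other on chromosome 15, on the minus strand, from 96571418 to 96642913 and from 96687392 to 96699730, with 44478 bases between them. Slc38a1 had 4.79 RPKM in the AS library (3711 reads) against 3.24 in the vehicle library (2835 reads). Slc38a2 had 8.31 and 5.96 RPKM, from 3299 and 2677 reads. Their log2 fold changes were 0.55 (interval 0.50 to 0.64) and 0.47 (interval 0.41 to 0.55), below both thresholds. The changes of these neighbours differed by 0.09 in reads, with a counting interval from -0.01 to 0.19.

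Slc6a9 encodes GLYT1, a sodium- and chloride-coupled glycine carrier, and is on the plus strand of chromosome 4, bases 117834506 to 117875198. It had 3.71 RPKM in the AS library (856 reads) against 1.62 in the vehicle library (422 reads). The log2 fold change was 1.15 (interval 1.03 to 1.37), number 50 of all genes. In reads, the change of Slc1a4 was above that of Slc6a9 by 0.15, with a counting interval from -0.06 to 0.35. Of the 5141 exon bases of Slc6a9, 30.2% are also exons of genes on the opposite strand. All 511 exon bases of Gm17114, annotated as a 3′ overlapping non-coding RNA, lie there, and it had 10.2 RPKM in the AS library (233 reads) against 2.54 in the vehicle library (66 reads), a log2 fold change of 1.96. Ccdc24 shares 1429 bases with Slc6a9 and had 1.75 and 0.964 RPKM, a log2 fold change of 0.80. B4galt2 shares 46 bases, and its log2 fold change was 0.01. The libraries were made with a stranded kit, but the sources used here do not say whether reads were counted by strand, so the value of Slc6a9 is uncertain, and the part of the overlapping genes in it was not tested. Of the 8 transporters, 6 share no exon bases with another gene, and the other exception, Slc38a9, shares 182 bases with a gene that is not in the table.

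Among the cationic carriers, Slc7a1 was in the table and Slc7a3, the gene of CAT3 on chromosome X, was not. Slc7a1 encodes CAT1, the widely expressed arginine and lysine carrier, and is on the minus strand of chromosome 5, bases 148327410 to 148399904. It was the most expressed of the 8 genes in both libraries, with 15.1 RPKM in the AS library against 8.82 in the vehicle library. It rested on the most reads, 7822 and 5168, and its log2 fold change of 0.77 has the narrowest interval, 0.73 to 0.83. The change of Slc1a5 differed from it by 0.04 in reads, with an interval from -0.14 to 0.23. In absolute terms its difference of 6.29 RPKM was the largest of the 8, ahead of 5.97 RPKM for Slc1a4, and these were 31.1% and 29.6% of the summed difference of 20.2 RPKM. Slc43a1, the gene of the sodium-independent carrier LAT3 on chromosome 2, was not in the table either.

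The 2 lysosomal carriers of the list had the smallest changes of the 8, but the interval of Slc36a1 overlapped those of Slc38a1 and Slc38a2. This does not extend to all lysosomal carriers, since Slc38a7, outside the list and chosen after its values were seen, was at 0.74. Slc36a1 encodes PAT1, a proton-coupled carrier of small neutral amino acids, and is on the plus strand of chromosome 11, bases 55204350 to 55236330. It had 1.57 RPKM in the AS library (397 reads) against 1.24 in the vehicle library (355 reads), a log2 fold change of 0.32 (interval 0.13 to 0.55). Slc38a9 encodes an arginine-sensing carrier that is part of the mTORC1 machinery on the lysosome, and is on the plus strand of chromosome 13, bases 112660751 to 112738749. Its level was the lowest of the 8, 0.388 RPKM in the AS library (291 reads) against 0.330 in the vehicle library (280 reads). Its log2 fold change was 0.18, and it was the 1 transporter of the 8 whose counting interval, here from -0.01 to 0.48, took in 0. In reads, the changes of Slc36a1 and Slc38a9 differed by 0.11, with a counting interval from -0.21 to 0.42. Together these 2 genes made up 4.14% of the summed RPKM of the 8 transporters with AS and 5.80% with the vehicle.

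**Figure D2:**
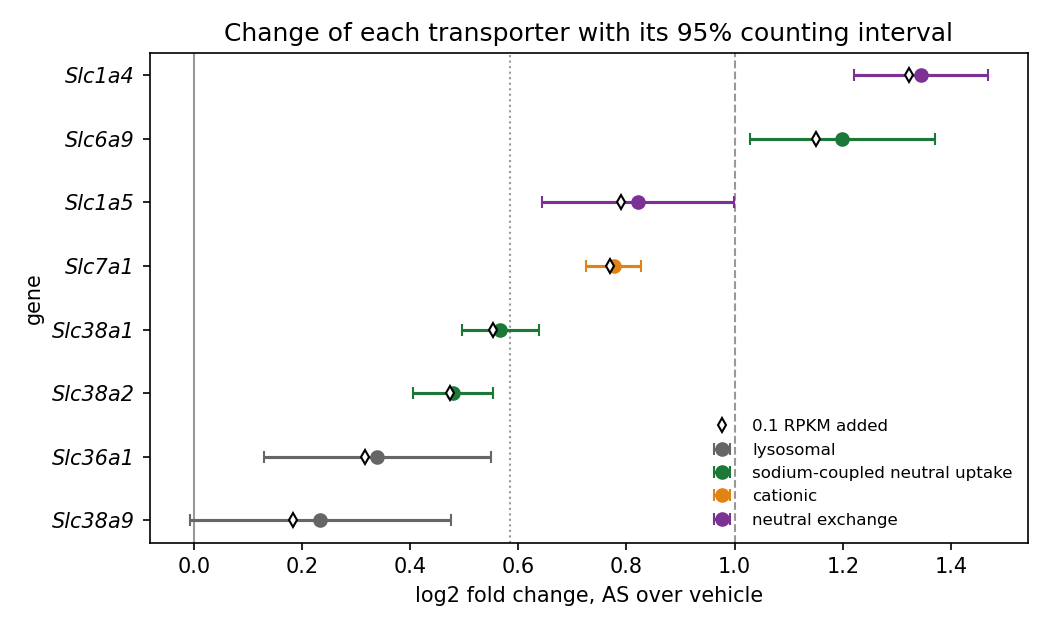
Log2 fold change of AS over vehicle for each transporter. Filled points are the ratio of reads with its 95% Clopper-Pearson interval (counting error only), coloured by class, and open diamonds the ratio with 0.1 RPKM added. The solid, dotted and dashed lines are at no change, 1.5-fold and a log2 fold change of 1. The intervals of Slc1a4 and Slc6a9 lie above 1, and that of Slc38a9 reaches below 0. The value of Slc6a9 is uncertain, since it shares exon bases with genes on the opposite strand.

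The order of the genes by RPKM differed between the libraries in 2 places. With the vehicle it ran Slc7a1, Slc38a2, Slc1a4, Slc38a1, Slc1a5, Slc6a9, Slc36a1 and Slc38a9, and the counting intervals of neighbours in this order did not overlap. With AS, Slc1a4 at 9.85 RPKM (interval 9.39 to 10.3) stood above Slc38a2 at 8.31 RPKM (interval 8.03 to 8.60). Slc6a9 at 3.71 RPKM (interval 3.46 to 3.96) and Slc1a5 at 3.55 RPKM (interval 3.28 to 3.83) had overlapping intervals. Slc1a4 held 20.8% of the summed RPKM under AS against 14.3% under vehicle, while that of Slc38a2 was 17.6% and 22.0%. Slc7a1 held 32.0% and 32.6%. Levels between genes are per summed exon length, which for Slc38a1 (17236 bases) and Slc38a9 (16704 bases) takes in every annotated exon, so reads of a shorter transcript are spread over more bases than it has.

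The changes can be set beside those of genes of similar level. All genes were put in 20 bins by their mean RPKM, with 710 genes in each bin that holds a transporter. In its bin Slc6a9 had the highest log2 fold change, a value that is uncertain because of the exon bases it shares with other genes. For Slc1a4, and likewise for Slc7a1, 2 of the 710 genes were higher, and for Slc1a5 there were 12, for Slc38a1 23 and for Slc38a2 25. For Slc36a1, 159 of the 710 genes were higher and for Slc38a9 305. The medians of these bins were between 0.06 and 0.11. This is a description of these libraries and not a test.

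**Figure D3:**
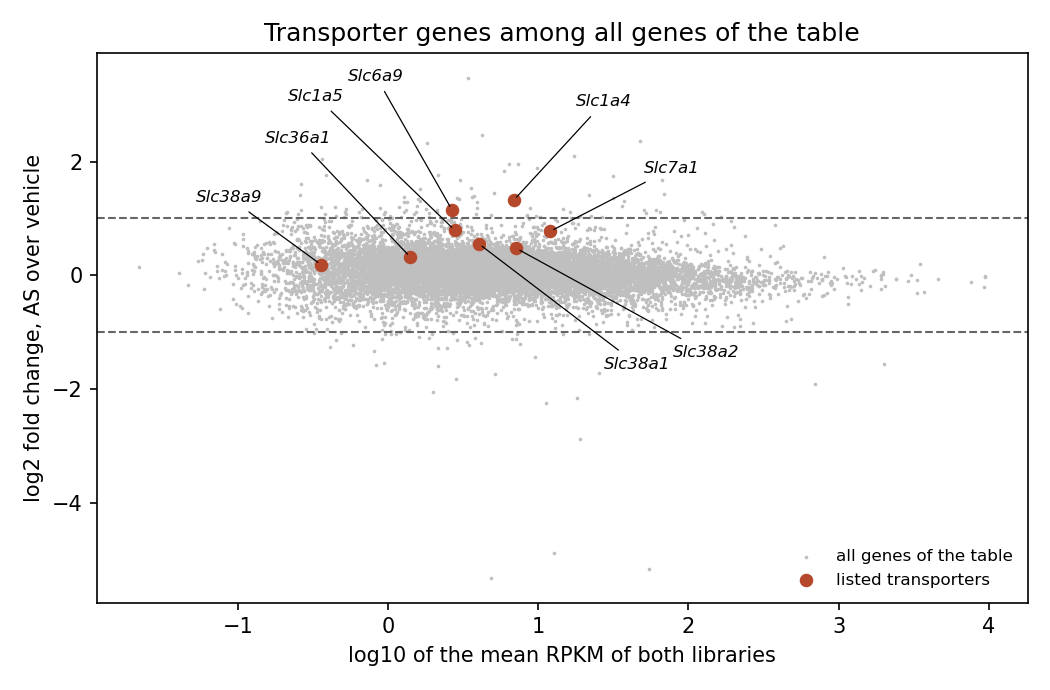
Log2 fold change of AS over vehicle (0.1 RPKM added) against the log10 of the mean RPKM of both libraries. Grey points are the 14197 genes of the table and red points the 8 transporters, all above 0, with Slc1a4 at 1.32 and Slc6a9 at 1.15 above the dashed line at 1. The value of Slc6a9 is uncertain, since it shares exon bases with other genes.

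Of 56 further genes for carriers of amino acids in the plasma membrane, the lysosome and mitochondria, 24 were in the table. Past a log2 fold change of 1, 3 of the 24 were higher and 0 lower, against 0.662% and 0.310% of all genes. The median was 0.08, near that of all genes. The 3 were Slc7a11, Slc3a2 and Slc7a5, which encode the cystine carrier xCT, its heavy chain partner 4F2hc and the large neutral carrier LAT1. Slc7a11 had 6.31 RPKM in the AS library against 0.478 in the vehicle library, a log2 fold change of 3.47 and the highest of all genes. Slc7a5 had 45.03 RPKM against 17.5, a log2 fold change of 1.36. Slc3a2 had 99.6 RPKM in the AS library against 36.8 in the vehicle library, a log2 fold change of 1.43. The value of Slc1a4, 1.32, was below those of all 3, but its interval overlapped those of Slc7a5 (1.31 to 1.43) and Slc3a2 (1.39 to 1.48). The 1 further gene past 1.5-fold was Slc38a7, chosen after its values were seen. Of all genes, 3.56% were higher by as much. Slc38a7 encodes a lysosomal glutamine carrier and had 2.49 RPKM in the AS library against 1.46 in the vehicle library. Its log2 fold change was 0.74 (interval 0.56 to 0.99). Within the SLC38 family, Slc38a10 (54.8 and 56.6 RPKM, -0.05) and Slc38a6 (0.9985 and 1.11 RPKM, -0.14, interval -0.36 to 0.05), also chosen after their values were seen, had values below 0.

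Of 38 genes that report amino acids to mTORC1 or to translation, or that encode or regulate mTORC1 itself, 36 were in the table. Past a log2 fold change of 1 there were 0 in either direction, where 0.662% of all genes were higher and 0.310% lower, and the median was 0.08, near that of all genes. Past 1.5-fold higher lay 1 of the 36, where 3.56% of all genes did, so both counts were near those of all genes. The 1 gene was Sesn2, chosen after its values were seen, which encodes a leucine-binding inhibitor of mTORC1. It had 2.68 RPKM in the AS library against 1.55 in the vehicle library, a log2 fold change of 0.75 (interval 0.56 to 1.01). The next was Mlst8, also chosen after its values were seen, which encodes a subunit shared by both mTOR complexes, at 0.56. Its interval, 0.36 to 0.83, takes in the values of Slc38a1 and Slc38a2. Among the partners of Slc38a9 on the lysosome, also chosen after their values were seen, Rraga had a log2 fold change of -0.23 and Rragc one of 0.21, and those of Lamtor1 to Lamtor5 lay between -0.36 and 0.10.

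The nearest protein-coding genes of the table that lie wholly to each side of the 8 transporters, so without genes that overlap them such as Ccdc24 at 0.80, gave 14 genes besides the transporters themselves. Their log2 fold changes ran from -0.53 for Pomp, beside Slc7a1, to 0.53 for Il6st, beside Slc38a9, with a median of 0.04. None of these 14 was past 1.5-fold in either direction, where 3.56% of all genes were higher by as much and 2.01% lower. For 14 genes a count of 0 is near these shares. Ccdc24, which overlaps Slc6a9, was past 1.5-fold. The genes that flank Slc1a4 were Cep68 at 0.26 and Sertad2 at 0.37, against 1.32 for Slc1a4. On the outer sides of the Slc38a1 and Slc38a2 pair lay Scaf11 at 0.10 and Amigo2 at 0.26.

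**Figure D4:**
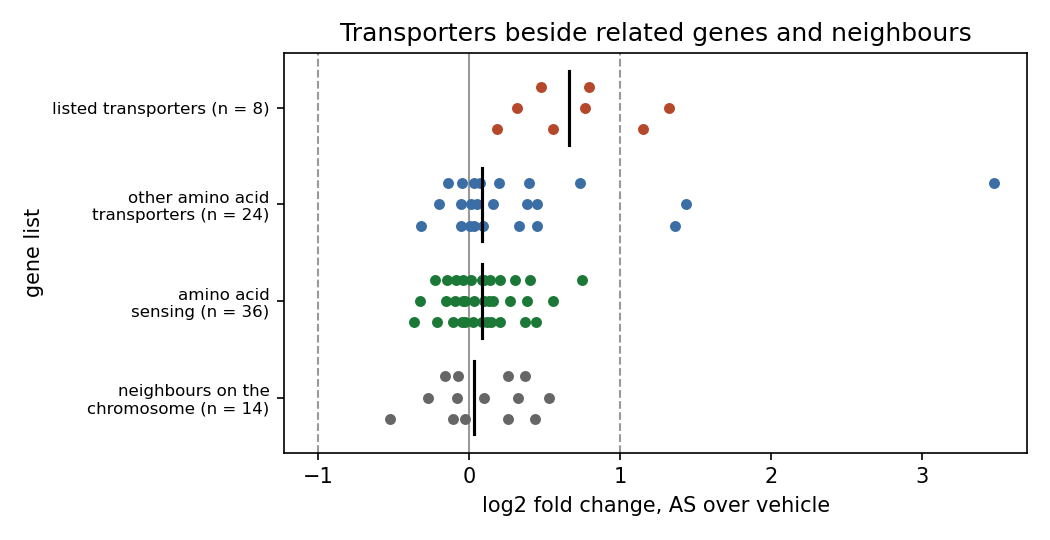
Log2 fold change of AS over vehicle (0.1 RPKM added) for the 8 listed transporters, 24 other amino acid transporters, 36 genes of amino acid sensing and mTORC1, and 14 chromosomal neighbours that do not overlap the transporters. Each point is a gene, spread vertically for legibility, black bars are medians (0.66, 0.08, 0.08 and 0.04), and dashed lines are at -1 and 1.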

How the data were processed

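RNA was sequenced from 1 library of 4T1 cells treated with AS and 1 treated with the vehicle. The authors deposited a table with an RPKM value per gene and library, scaled to library totals. The unit is not named in the table and was found from the values. The submitters' processing notes name fastp 0.23.4, STAR 2.5.3a, featureCounts and the human build GRCh38, whereas symbols and exon lengths are those of mouse. The strand setting and the filter on low genes are not given in the sources used here. The authors' fold changes, mean CPM, p-values and FDR in that table were not used. The study's methods name DESeq2, which was not run here.

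Reads were taken as RPKM times the summed exon length (GENCODE M21) times a constant per library, and called whole within 0.01 in both libraries, which held for 94.2% of 13502 genes with a length. The recovery and the intervals were tested on simulated data. Log2 fold changes carry 0.1 RPKM on both values, with thresholds of 1 and of 1.5-fold. Intervals are at 95% and cover counting error only, since 1 library per condition gives no spread between cultures. Reads without molecular identifiers are not independent molecules, so the intervals can be too narrow for counting error too. Intervals of differences between genes use the sum of the inverse reads. The members and lists were chosen with earlier results of these data known. Named are all members, and of the other lists up to 4 genes past 1 in each direction, and any further gene of these lists was chosen after its values were seen, as said beside it. Neighbouring and overlapping genes and the bins of expression were added after the data were seen. Alternatives were other added amounts, scalings, an expression trend and a filter. Computations ran in Python 3.11.15.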

Additional observations from a re-analysis of the deposited data

How the results depend on the processing

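All 8 transporters stayed above 0 in all 47 alternative values of the log2 fold change, and 36 of the 47 lay within the counting interval of the gene. Part of this was fixed in advance. The filter leaves a value unchanged, and the ratio with 0 RPKM added is the one the interval is built around. No added amount can change the sign of a ratio. With 1 RPKM added, 1 transporter was past a log2 fold change of 1 in place of 2, since Slc6a9 came to 0.85 and Slc1a4 to 1.15. Slc1a5 came to 0.60, Slc7a1 to 0.71 and Slc38a1 to 0.45. Past 1.5-fold there were 4 transporters, and 1 gene of amino acid sensing and mTORC1 in place of 0. Centring on the median of all genes moved that median by -0.07 and gave 0.70 for Slc7a1 and 0.49 for Slc38a1, and upper-quartile scaling gave 0.72 for Slc7a1. With the trend with expression removed, Slc7a1 came to 0.71, Slc38a1 to 0.46 and Slc38a2 to 0.39. Under these 3 scalings Slc1a4 lay between 1.24 and 1.27 and Slc6a9 between 1.04 and 1.10. None of the alternatives deals with the exon bases that Slc6a9 shares with other genes. The counts of other transporters past 1 (3 higher, 0 lower) were the same under every alternative at that threshold. Slc38a9 has no value with a minimum mean of 1 RPKM, which it does not reach. Without replicates the spread between cultures is unknown, and depth limits Slc38a9 (291 and 280 reads) most. No paired analysis was possible because each condition has 1 library.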
